A study of Homo sapiens with 2 samples.

Results

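Hair cell transcription factors are the DNA-binding proteins that start and keep the hair cell programme of the inner ear, and 8 of their genes were followed here in 2 single-cell libraries of human inner ear organoids. The genes were ATOH1, POU4F3, GFI1, LHX3, BARHL1, INSM1, HES6 and RFX2, taken by symbol as 8 of the 36601 genes listed. The organoids came from WA25, a human embryonic stem cell line, here with a nuclear tdTomato reporter at SOX2, and were collected on day 40. Tomato-positive cells were sorted by flow cytometry and loaded for 3′ single-cell sequencing. The groups were GelNB-CH, a hydrogel that is chemically defined and photo-polymerized, and Matrigel, an extract of basement membrane, and each has 1 library. Before embedding, the aggregates of both libraries had been given FGF-2, SB-431542, BMP-4, LDN193189 and CHIR99021 in turn, with growth factor-reduced Matrigel in the first medium. GelNB-CH was set with 0.1 wt% of the thiol crosslinker PEG4SH and followed by 0.02% oDex for a day, with CHIR99021 in the medium. The growth text of both libraries describes this GelNB-CH embedding and oDex step, so the Matrigel group rests only on the title and the treatment label of its library. The sort takes cells by the reporter, all cells descend from 1 stem cell line, and with 1 library per group no test between groups was possible. Intervals below are 95% and cover counting error only.

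Hair cells are the mechanosensory cells of the cochlea and vestibular organs, and arise from SOX2-positive precursors in the same epithelium as their supporting cells. ATOH1, a basic helix-loop-helix activator, is needed in mice for hair cells to form, and is held down in supporting cells by Notch signalling through HES and HEY repressors. POU4F3 and GFI1 act after ATOH1 and are needed in mice for hair cells to survive, while several of the other factors also serve neurons or neuroendocrine cells.

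The genes lie on 7 chromosomes of GRCh38 in the GENCODE annotation. ATOH1 is at chr4:93828753-93830964, POU4F3 at chr5:146338839-146341722 and BARHL1 at chr9:132582185-132590266, all on the plus strand, and INSM1 is at chr20:20368121-20370949, also on the plus strand. GFI1 at chr1:92474762-92486876, LHX3 at chr9:136196250-136205128, HES6 at chr2:238238267-238240662 and RFX2 at chr19:5993164-6199572 are on the minus strand. All 8 are annotated as protein-coding genes. Promoter windows, from 250 bases before to 50 bases after the RefSeq start of the gene, were taken on GRCh38.p14, where 6 of the 8 factors had an entry. The RefSeq start can differ from the GENCODE one, and the windows of HES6 and BARHL1 lie inside the GENCODE spans of these genes. The windows of the 4 factors that were found together in the same cells are shown with that of HES6, the most abundant factor by UMI in those cells. They are chr4:93828503-93828802 for ATOH1 and chr5:146338589-146338888 for POU4F3 on the plus strand, and chr1:92486876-92487175 for GFI1, chr9:136205079-136205378 for LHX3 and chr2:238239989-238240288 for HES6 on the minus strand. Capitals mark the E-box CAGNTG, a motif of basic helix-loop-helix proteins, searched on both strands, so that its reverse complement CANCTG also counts as a match. No other motif was searched.
ATOH1: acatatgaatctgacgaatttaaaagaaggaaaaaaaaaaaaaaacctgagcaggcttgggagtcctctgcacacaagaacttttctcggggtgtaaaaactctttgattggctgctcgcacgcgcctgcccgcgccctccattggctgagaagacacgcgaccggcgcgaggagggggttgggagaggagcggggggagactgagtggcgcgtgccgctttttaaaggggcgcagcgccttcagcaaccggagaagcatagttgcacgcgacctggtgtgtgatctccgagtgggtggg
POU4F3: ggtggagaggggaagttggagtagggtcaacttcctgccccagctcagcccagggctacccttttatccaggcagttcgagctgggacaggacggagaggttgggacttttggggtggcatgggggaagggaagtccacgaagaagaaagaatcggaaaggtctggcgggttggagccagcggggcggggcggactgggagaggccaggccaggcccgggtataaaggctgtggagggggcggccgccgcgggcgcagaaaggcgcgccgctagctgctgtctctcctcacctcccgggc
GFI1: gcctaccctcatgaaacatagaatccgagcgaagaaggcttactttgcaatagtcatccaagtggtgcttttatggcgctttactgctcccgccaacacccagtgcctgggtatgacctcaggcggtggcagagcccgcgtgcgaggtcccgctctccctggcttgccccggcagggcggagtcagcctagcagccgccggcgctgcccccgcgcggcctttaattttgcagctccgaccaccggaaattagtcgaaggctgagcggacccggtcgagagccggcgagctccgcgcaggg
LHX3: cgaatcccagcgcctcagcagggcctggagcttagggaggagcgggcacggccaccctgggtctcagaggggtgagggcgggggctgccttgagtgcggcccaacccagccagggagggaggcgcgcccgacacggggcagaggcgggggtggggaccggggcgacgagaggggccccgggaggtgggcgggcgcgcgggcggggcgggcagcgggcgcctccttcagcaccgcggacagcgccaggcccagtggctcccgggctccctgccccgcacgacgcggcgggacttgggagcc
HES6: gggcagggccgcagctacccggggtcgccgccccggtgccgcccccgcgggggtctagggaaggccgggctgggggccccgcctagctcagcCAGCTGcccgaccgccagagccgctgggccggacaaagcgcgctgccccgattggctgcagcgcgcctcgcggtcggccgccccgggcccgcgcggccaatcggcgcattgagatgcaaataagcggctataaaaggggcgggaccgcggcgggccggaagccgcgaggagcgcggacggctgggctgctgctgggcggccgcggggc
The motif occurred 1 time in the HES6 window, starting 158 bases before the gene's RefSeq start. It was not among the letters of the windows of ATOH1, POU4F3, GFI1, LHX3 and BARHL1. Of 35116 RefSeq promoters of the same length, 49.9% held it. The GC content was 56.0% for ATOH1, 65.7% for POU4F3, 63.3% for GFI1, 78.3% for LHX3, 61.7% for BARHL1 and 78.0% for HES6.

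The GelNB-CH library held 21743 barcodes and the Matrigel library 10912, of which 18253 and 9800 were kept as cells. Kept cells had a median of 8558 UMIs (unique molecular identifiers, 1 per captured RNA molecule) in GelNB-CH and 14001.5 in Matrigel, so a rare transcript is more likely to be seen in a Matrigel cell. The libraries shared 78 barcode sequences. Doublet calling removed 14.2% of GelNB-CH and 6.55% of Matrigel barcodes. SOX2 itself stood at 16.8 CPM (UMIs of a gene per 1000000 UMIs) in GelNB-CH and 17.9 CPM in Matrigel over all kept cells.

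Hair cell-like cells were picked without the factors. A kept cell counted as hair cell-like when it had a UMI of at least 5 of 16 structural genes of hair cells, among them ESPN, MYO7A, MYO15A, OTOF and CABP2, none of which is one of the 8 factors. The rule gave 18 cells in GelNB-CH, 0.0986% of kept cells (0.0585 to 0.156%), and 22 cells in Matrigel, 0.224% (0.141 to 0.340%). These cells split by their number of structural markers. All 15 GelNB-CH and all 12 Matrigel cells with 7 or more markers had UMIs of at least 2 of ATOH1, POU4F3, GFI1 and LHX3. None of the 3 GelNB-CH and 10 Matrigel cells with 5 or 6 markers had a UMI of any of these 4. The 5 or 6 marker cells lay in otic epithelium-like clusters (3 in GelNB-CH, 6 in Matrigel) or neuron-like clusters (0 and 4), with a median of 18096 UMIs in GelNB-CH and 30432.5 in Matrigel. Just outside the limit, 1 of 19 GelNB-CH cells and 0 of 48 Matrigel cells with 4 markers had 2 or more of the 4 factors. Values are given first for the 13 GelNB-CH and 12 Matrigel cells that had at least 8 markers, which had a median depth of 12425 and 21239 UMIs and are called hair cells here. This stricter limit was put first with the factors' values known, so how often the factors were found in these cells is a description and no support, and the values by the limit of 5 markers follow those of the single factors.

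**Figure D1:**
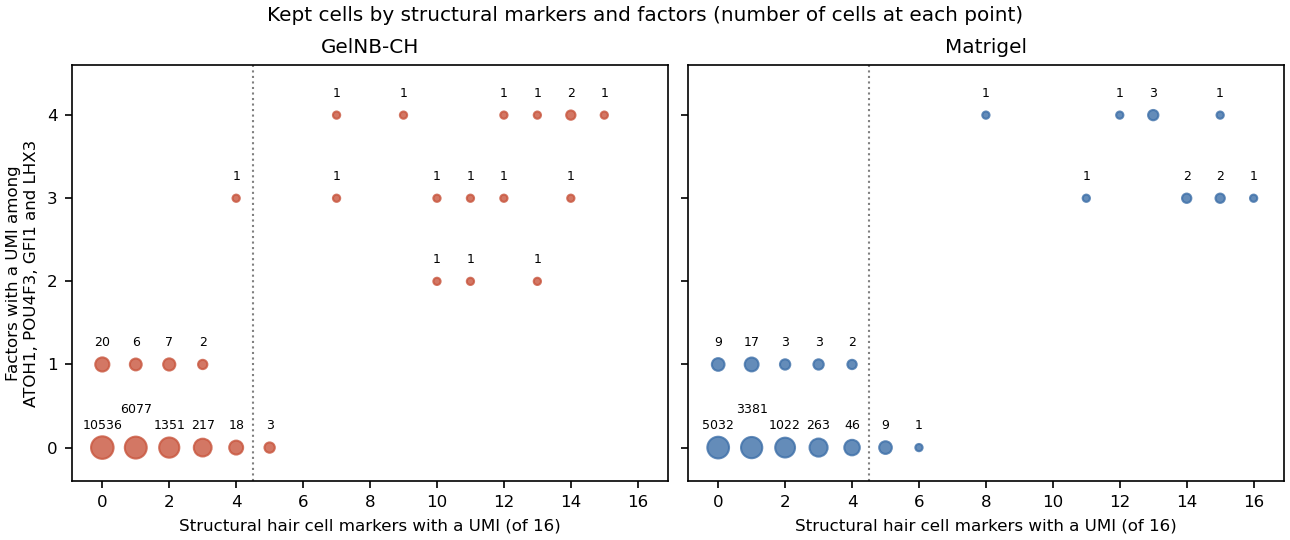
Kept cells by the number of 16 structural hair cell markers with a UMI (x axis) and the number of ATOH1, POU4F3, GFI1 and LHX3 with a UMI (y axis), with the number of cells at each point, GelNB-CH on the left and Matrigel on the right. The dotted line marks the limit of 5 markers. Cells with 2 or more of the 4 factors sit at 7 or more markers, apart from 1 GelNB-CH cell with 4 markers.

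The hair cells carried most structural genes of the type, which chose them. In GelNB-CH 15 of the 16 structural genes had a UMI, TMC1 being at 0, and in Matrigel all 16 had one, with TMC1 in 2 cells. SOX2, the gate gene, was detected in 11 of 13 GelNB-CH hair cells and 12 of 12 in Matrigel, at 219 CPM (160 to 292) in GelNB-CH and 178 CPM (138 to 225) in Matrigel, against 16.5 and 17.5 CPM in cells that were not hair cell-like. Of 12 keratin-rich epithelium markers, 8 were at 0 in each library's hair cells, and the summed level of the list was 262 CPM in GelNB-CH and 276 in Matrigel, against 2925 and 1710 CPM in the keratin-rich epithelium-like cells. Of 12 Merkel cell markers, 8 had UMIs and 4 were at 0 in each library, namely KRT20, VIP, CCK and SST. The list summed to 510 CPM in GelNB-CH and 407 in Matrigel hair cells, against 316 and 308 CPM in the other cells. Several of its members stood above the other cells, with CHGA at 33.3 against 1.48 CPM in GelNB-CH and 28.4 against 1.79 CPM in Matrigel, and SYP at 42.9 against 7.73 CPM in GelNB-CH and 38.7 against 12.2 CPM in Matrigel. ISL1 was at 66.7 against 13.6 CPM in GelNB-CH and 30.9 against 24.2 CPM in Matrigel. PIEZO2 went the other way, at 33.3 against 52.0 CPM in GelNB-CH and 30.9 against 87.5 CPM in Matrigel. RAB3C was lower in GelNB-CH hair cells, at 4.76 against 6.42 CPM, and higher in Matrigel, at 7.73 against 3.76 CPM. KRT18 was level in Matrigel, at 69.6 against 69.5 CPM. The median doublet score was 0.227 in GelNB-CH hair cells, against 0.102 in cells that were not hair cell-like, and 0.0527 against 0.0491 in Matrigel. The 8 cycling genes summed to 681 CPM in GelNB-CH and 103 in Matrigel hair cells, against 568 and 644 CPM in the other cells. The GelNB-CH sum rested on few cells, with TOP2A in 10 of 13 hair cells and each of the other cycling genes in 2 or 3. The part of doublets in the hair cell values was not tested.

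An unsupervised clustering made without the 8 factors placed the same kind of cell together. Its hair cell-like cluster held 16 GelNB-CH and 11 Matrigel cells, with median depths of 11136 and 19379 UMIs. It contained all 13 GelNB-CH and 11 of the 12 Matrigel cells with at least 8 markers. The 12th Matrigel cell, with 11 markers and 70974 UMIs, lay in the keratin-rich epithelium-like cluster and carried 5 ATOH1, 7 POU4F3, 2 GFI1, 1 BARHL1, 5 INSM1, 100 HES6 and 1 RFX2 UMIs. One GelNB-CH cell of the cluster had only 4 structural markers, with 3 ATOH1, 4 POU4F3, 1 GFI1, 1 INSM1 and 78 HES6 UMIs. All 16 and all 11 cells of the cluster had at least 2 of ATOH1, POU4F3, GFI1 and LHX3.

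**Figure D2:**
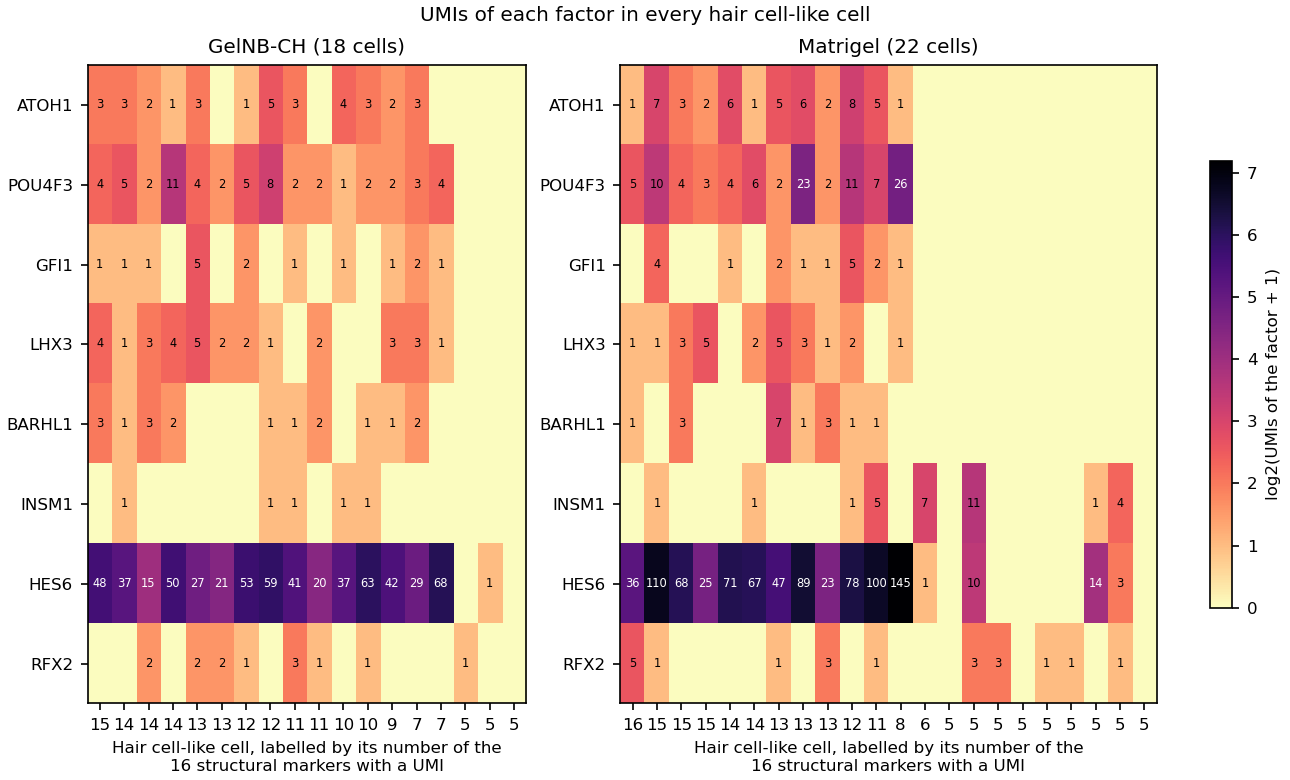
UMIs of each of the 8 factors (rows) in every hair cell-like cell (columns), GelNB-CH with 18 cells on the left and Matrigel with 22 on the right, labelled by the number of structural markers and coloured by log2(UMIs + 1). HES6 and POU4F3 are present in every cell with 7 or more markers, and the 4 factors ATOH1, POU4F3, GFI1 and LHX3 are at 0 in every cell with 5 or 6.

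ATOH1, the factor that starts hair cell fate, had a UMI in 11 of the 13 GelNB-CH and 12 of the 12 Matrigel hair cells. The GelNB-CH cells had 0 to 5 UMIs with a median of 3, and the Matrigel cells 1 to 8 with a median of 4. Summed over these cells the level was 142.9 CPM (96.4 to 204.0) in GelNB-CH and 121.1 CPM (89.0 to 161.1) in Matrigel. In cells that were not hair cell-like it was 0.043 CPM in GelNB-CH and 0.026 in Matrigel. The level in hair cells did not differ between libraries beyond counting error, with a GelNB-CH over Matrigel ratio of 1.18 (0.720 to 1.90). Cartilage-like cells, which should lack the gene, had 0 ATOH1 UMIs in 1647 GelNB-CH and 563 Matrigel cells, which allows a share of cells with a UMI of up to 0.182% and 0.533%, at median depths of 9315 and 14520 UMIs.

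POU4F3, a POU-domain activator needed for hair cell maturation and survival in mice and mutated in a human progressive deafness, was in every hair cell with at least 8 markers. The GelNB-CH cells had 1 to 11 UMIs with a median of 2, and the Matrigel cells 2 to 26 with a median of 5.5. In Matrigel 2 cells stood above the rest, with 23 and 26 UMIs, and the next highest had 11. The level was 238.2 CPM (176.8 to 314.0) in GelNB-CH and 265.5 CPM (216.7 to 321.9) in Matrigel, a ratio of 0.897 (0.627 to 1.27). In the other cells it was 0.087 CPM in GelNB-CH and 0.077 in Matrigel, and in cartilage-like cells 0 UMIs were counted.

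GFI1, a zinc finger repressor that in mice keeps neuronal genes off in hair cells, was in 8 of 13 GelNB-CH and 8 of 12 Matrigel hair cells. Cells of both libraries had 0 to 5 UMIs with a median of 1. The level was 61.9 CPM (33.0 to 105.9) in GelNB-CH and 43.8 CPM (25.5 to 70.2) in Matrigel, a ratio of 1.41 (0.631 to 3.09). In the other cells it stood at 0.071 CPM in GelNB-CH and 0.070 in Matrigel.

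LHX3, a LIM-homeodomain factor of hair cells, pituitary and motor neurons, was in 10 of 13 GelNB-CH and 10 of 12 Matrigel hair cells. The GelNB-CH cells had 0 to 5 UMIs with a median of 2, and the Matrigel cells 0 to 5 with a median of 1.5. The level was 128.6 CPM (84.8 to 187.1) in GelNB-CH and 61.9 CPM (39.6 to 92.0) in Matrigel, against 0.033 and 0.090 CPM in the other cells. The ratio between libraries was 2.08 (1.16 to 3.76), and it was the only one of the 8 factors whose interval left out 1 in these cells. In the hair cell-like cluster the ratio was 1.70 (0.966 to 3.03), whose interval includes 1.

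BARHL1, a homeodomain factor needed for hair cell maintenance in mice and also made by some brain neurons, was in 9 of 13 GelNB-CH and 7 of 12 Matrigel hair cells. The GelNB-CH cells had 0 to 3 UMIs and the Matrigel cells 0 to 7, with a median of 1 in both. The level was 71.5 CPM (40.0 to 117.9) in GelNB-CH and 43.8 CPM (25.5 to 70.2) in Matrigel, a ratio of 1.63 (0.758 to 3.47).

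INSM1, a zinc finger factor of neuronal and endocrine precursors that in mice also marks newly formed outer hair cells, was in 5 of 13 GelNB-CH and 4 of 12 Matrigel hair cells. No GelNB-CH cell had more than 1 UMI. In Matrigel 5 of the 8 UMIs came from the 1 hair cell in the keratin-rich cluster. The level was 23.8 CPM (7.73 to 55.6) in GelNB-CH and 20.6 CPM (8.90 to 40.6) in Matrigel. Without that cell, in the hair cell-like cluster, the Matrigel level was 9.46 CPM (1.95 to 27.7), against 24.9 CPM (9.14 to 54.2) in GelNB-CH. By the limit of 5 markers Matrigel hair cell-like cells held 31 INSM1 UMIs, of which 23 lay in the 4 cells of neuron-like clusters with 5 or 6 markers and none of ATOH1, POU4F3, GFI1 and LHX3.

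HES6, a helix-loop-helix protein that counters HES1 and lies downstream of ATOH1 in mice, had the most UMIs of the 8 factors in these cells. It was in all 13 GelNB-CH and all 12 Matrigel hair cells, at 15 to 63 UMIs with a median of 41 in GelNB-CH and 23 to 145 with a median of 69.5 in Matrigel. The level was 2444 CPM (2237 to 2665) in GelNB-CH and 2214 CPM (2068 to 2367) in Matrigel, against 51.3 and 57.2 CPM in the other cells, which is 47.6 times and 38.7 times as high. Thinned to 5000 UMIs a cell, HES6 was still found in 100% and 91.7% of these hair cells, against 4.17% and 2.37% of cartilage-like cells.

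RFX2, a winged-helix regulator of ciliary genes, was in 7 of 13 GelNB-CH and 5 of 12 Matrigel hair cells. Cells had 0 to 3 UMIs in GelNB-CH and 0 to 5 in Matrigel. The level was 57.2 CPM (29.5 to 99.9) in GelNB-CH, against 15.9 CPM (15.4 to 16.5) in the other cells. In Matrigel hair cells it was 28.4 CPM (14.2 to 50.7), against 17.5 CPM (16.8 to 18.1), and these intervals overlap. RFX3, its relative on the list of paralogues, was in every hair cell, at 329 CPM in GelNB-CH and 253 in Matrigel, against 132 and 116 CPM in the other cells.

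The limit of 5 markers adds 5 GelNB-CH and 10 Matrigel cells. With these cells, the factors other than RFX2 and INSM1 were found less widely in Matrigel than in GelNB-CH. ATOH1 was in 12 of 18 cells for GelNB-CH and 12 of 22 for Matrigel, at 105 and 58.9 CPM, and POU4F3 in 15 of 18 and 12 of 22, at 182 and 129 CPM. GFI1 was in 10 and 8 of these cells, at 51.1 and 21.3 CPM, LHX3 in 12 and 10, at 99.0 and 30.1 CPM, and BARHL1 in 10 and 7, at 54.3 and 21.3 CPM. HES6 was in 16 and 16, at 1952 and 1112 CPM, and RFX2 in 8 and 10, at 41.5 and 25.1 CPM. INSM1 went the other way, in 5 and 8 cells at 15.97 and 38.9 CPM. The comparison of the libraries differed with the choice of cells. By this limit the GelNB-CH over Matrigel ratio was 1.79 (1.11 to 2.85) for ATOH1, 1.41 (1.00 to 1.97) for POU4F3, 2.40 (1.13 to 5.05) for GFI1 and 3.29 (1.87 to 5.86) for LHX3. It was 2.55 (1.22 to 5.31) for BARHL1, 1.75 (1.58 to 1.95) for HES6, 1.66 (0.757 to 3.50) for RFX2 and 0.411 (0.125 to 1.07) for INSM1.

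At 2-fold and with the larger CPM at least 10, 8 of the 8 factors were higher in GelNB-CH hair cells than in the other cells, and 6 of the 8 in Matrigel. Among all genes compared 20.3% in GelNB-CH and 19.2% in Matrigel were that much higher, and 18.9% and 14.2% that much lower. By the limit of 5 markers 8 of 8 factors were higher in GelNB-CH and 7 of 8 in Matrigel, beside 16.4% and 13.5% of all genes, with 13.2% and 7.87% lower. ATOH1, POU4F3, GFI1, LHX3 and BARHL1 passed 10 CPM only through the hair cells and so had to differ, and no support is read from their count. INSM1 in GelNB-CH also passed 10 CPM only through the hair cells and could not have been called lower. INSM1 and RFX2 were the exceptions in Matrigel hair cells, at 1.61 and 1.62 times the level in the other cells.

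The factors were found together. Cells with UMIs of at least 2 of ATOH1, POU4F3, GFI1 and LHX3 numbered 16 in GelNB-CH, of which 15 were hair cell-like by the structural markers, and 12 in Matrigel, all of them hair cell-like. All 4 were present in 7 GelNB-CH and 6 Matrigel cells, every one hair cell-like. Of the 8 factors, hair cells had a median of 6 in both libraries, between 4 and 7, and no cell had all 8. At least 6 factors marked 10 GelNB-CH and 7 Matrigel cells, all hair cell-like. At least 4 marked 19 GelNB-CH cells, 78.9% of them hair cell-like, and 15 Matrigel cells, 80.0%. Of the cells with at least 4 factors that were not hair cell-like, 3 of 4 in GelNB-CH and 3 of 3 in Matrigel were neuron-like, all with INSM1 and HES6. The remaining one was the GelNB-CH cell with 4 structural markers in the hair cell-like cluster.

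Within the hair cells, co-detection of the less abundant factors rested on few cells and differed between pairs. LHX3 was in 6 of the 8 GelNB-CH and 6 of the 8 Matrigel cells that had GFI1. These shares of 75% (34.9 to 96.8) stand against 10 of 13 and 10 of 12 in all hair cells. BARHL1 was in 7 of the 10 GelNB-CH and 6 of the 10 Matrigel cells that had LHX3, against 9 of 13 and 7 of 12. Of the hair cells with INSM1, 2 of 5 in GelNB-CH had LHX3 (40%, 5.27 to 85.3), and 3 of 4 in Matrigel (75%, 19.4 to 99.4). The 5 GelNB-CH and 4 Matrigel hair cells with INSM1 all had ATOH1, POU4F3 and HES6 as well. POU4F3 and HES6 were in every hair cell, and ATOH1 in 11 of 13 GelNB-CH and 12 of 12 Matrigel hair cells. Only for ATOH1 in GelNB-CH could the overlap have come out otherwise. At a median of 3 or fewer UMIs a cell for most of these factors, a count of 0 does not show that a cell lacks the RNA. When cells were thinned to 5000 UMIs, ATOH1 had a UMI in 30.8% of GelNB-CH hair cells and 58.3% in Matrigel, GFI1 in 30.8% and 33.3%, and POU4F3 in 92.3% and 91.7%.

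Outside the hair cell-like cells, ATOH1, POU4F3, GFI1 and LHX3 were rare. Any of the 4 was seen in 36 of 18235 GelNB-CH cells and 34 of 9778 Matrigel cells, and in 35 and 29 of these as a single UMI. Hair cell-like cells held 76.1% (69.2 to 82.1) of the UMIs of the 4 in GelNB-CH, 137 of 180, and 82.3% (76.8 to 87.0) in Matrigel, 191 of 232. Neuron-like cells held 11 UMIs in GelNB-CH and 19 in Matrigel. In the neuron-like class POU4F3 reached 0.405 CPM (0.131 to 0.944) in GelNB-CH and 0.723 CPM (0.347 to 1.33) in Matrigel, with 5 of 1407 and 6 of 859 cells positive. One Matrigel neuron-like cell had 4 POU4F3 UMIs, with 1 INSM1 and 18 HES6. Otic epithelium-like cells, from which hair cells arise, held 1 ATOH1 UMI in 6705 GelNB-CH cells and 0 in 2631 Matrigel cells, the second of which allows a share of up to 0.114%. The keratin-rich epithelium-like cells held 2 UMIs of the 4 factors in 509 GelNB-CH cells (1 GFI1 and 1 LHX3) and 1 in 255 Matrigel cells (ATOH1).

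**Figure D3:**
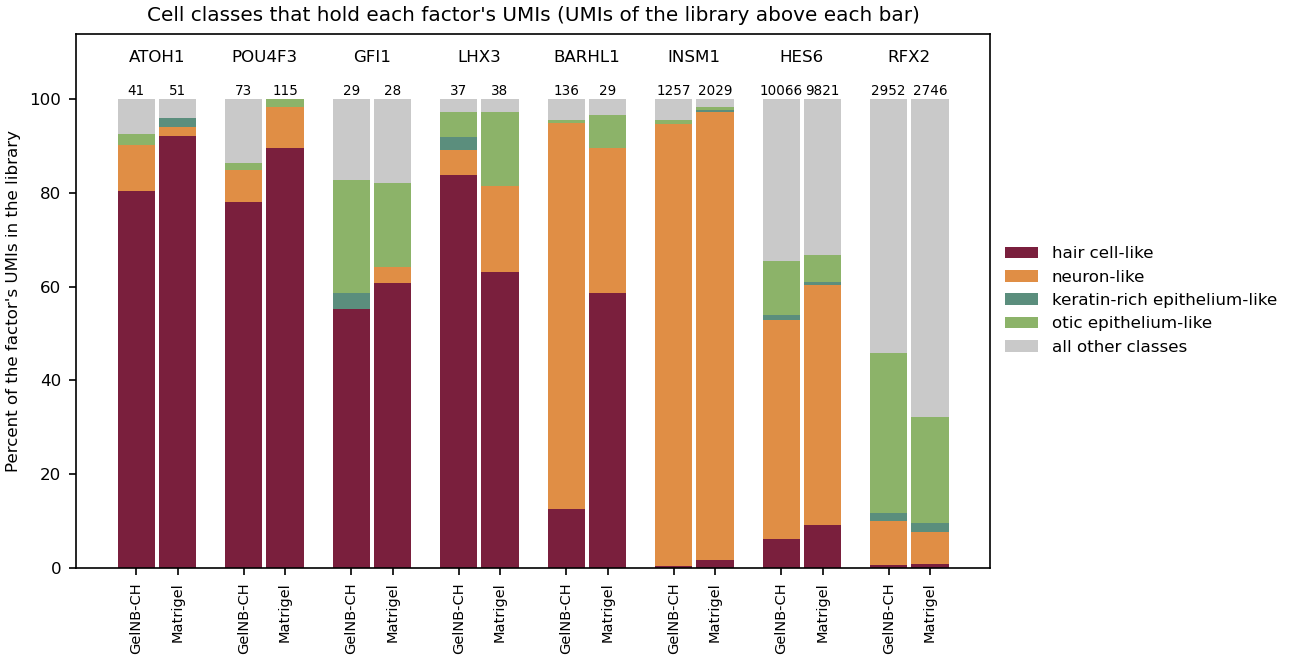
Share of each factor's UMIs (y axis, percent of the library's total for that factor, printed above each bar) in each cell class, with a GelNB-CH bar left of a Matrigel bar for each factor. ATOH1, POU4F3, GFI1 and LHX3 lie mostly in hair cell-like cells, INSM1 almost wholly in neuron-like cells (94.3% in GelNB-CH and 95.9% in Matrigel), and HES6 and RFX2 in many classes.

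BARHL1, INSM1 and HES6 also lay in the neuron-like cells, 1407 cells in GelNB-CH and 859 in Matrigel. These cells held most INSM1 UMIs in both libraries. They held 112 of the 136 BARHL1 UMIs of GelNB-CH and 9 of the 29 of Matrigel. Of the 3 factors that reached 10 CPM in either side of the comparison, INSM1 and HES6 were at least 2-fold higher in neuron-like cells than in the rest in both libraries and RFX2 was not, while 13.1% of genes in GelNB-CH and 11.4% in Matrigel were that much higher. INSM1 stood at 95.9 CPM (90.5 to 101.5) in GelNB-CH and 140.6 CPM (134.4 to 147.0) in Matrigel neurons, in 34.9% and 61.7% of the cells. In cartilage-like cells, at median depths of 9315 and 14520 UMIs beside 7681 and 14128 in the neurons, the share with INSM1 was 0.182% in GelNB-CH and 0.533% in Matrigel. The neuron-like class held 94.3% of all INSM1 UMIs in GelNB-CH and 95.9% in Matrigel. HES6 was at 381.6 CPM (370.8 to 392.7) in GelNB-CH neurons and 364.1 CPM (354.1 to 374.3) in Matrigel neurons, in 62.7% and 83.9% of the cells, and below its level in hair cells in both libraries. Of neuron-like cells with INSM1, 80.7% had HES6 in GelNB-CH, against 62.7% of all neuron-like cells, and 89.4% against 83.9% in Matrigel. Thinned to 5000 UMIs the shares were 67.2% (61.7 to 72.4) against 54.1% in GelNB-CH and 68.4% (63.2 to 73.3) against 65.0% in Matrigel, where the difference lay within the interval.

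The neuron-like class was made of 3 clusters. Cluster 7 was led by STMN2 and DCC, genes of growing axons, and held 809 GelNB-CH and 122 Matrigel cells. Cluster 20 expressed NEUROD1, a basic helix-loop-helix factor of sensory and other neurons, at 675 CPM in GelNB-CH and 587 in Matrigel, and held 363 and 650 cells outside the hair cell-like ones. Cluster 22 carried all 8 cycling genes and held 235 and 87 cells. It met 9 of 12 neuron markers and 8 of 12 central nervous system progenitor markers. The progenitor list summed to 2053 CPM there in GelNB-CH and 759 in Matrigel, against 1294 and 1726 CPM for the neuron list. The shares of the clusters differed between libraries, 4.43% of kept cells in GelNB-CH and 1.24% in Matrigel for cluster 7, and 1.99% and 6.63% for cluster 20. These shares also set the level of any factor over the whole neuron-like class.

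Outside the hair cells, BARHL1 lay mostly in cluster 7. That cluster held 107 of the 136 BARHL1 UMIs of GelNB-CH, in 58 cells, and 8 of the 29 of Matrigel, in 4 cells. Its level there was 19.0 CPM in GelNB-CH and 5.21 in Matrigel, a ratio of 3.65 (1.79 to 8.67). Hair cells stood higher in both libraries, at 71.5 and 43.8 CPM. Of the 62 cluster 7 cells with BARHL1 in both libraries together, 80.6% had LHX9, a LIM-homeodomain factor of the developing brain, against 27.8% of the 869 without it. BARHL2, the paralogue of BARHL1, was in 27.4% against 5.75%, and LHX2, the paralogue of LHX9, in 45.2% against 28.8%. ZIC1, a zinc finger factor of the dorsal hindbrain, was in 11.3% against 25.1%. The cells with BARHL1 were the shallower ones, at a median of 5880 UMIs against 6848. INSM1 was in 10 of the 60 GelNB-CH neuron-like cells with BARHL1 (16.7%, 8.29 to 28.5), against 34.9% of all, and in 4 of the 5 in Matrigel, against 61.7% of all. Nearly all of these GelNB-CH cells were of cluster 7, where 24.7% of cells (21.8 to 27.8) had INSM1, an interval that overlaps theirs.

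Most INSM1 lay in cluster 20. That cluster held 58.3% of all INSM1 UMIs in GelNB-CH and 82.9% in Matrigel, at 188.6 and 161.9 CPM, a ratio of 1.16 (1.07 to 1.27). In cluster 7 INSM1 was at 61.6 CPM in GelNB-CH and 66.4 in Matrigel, a ratio of 0.928 (0.742 to 1.17). In the cycling cluster 22 it was 37.0 and 84.4 CPM, a ratio of 0.439 (0.340 to 0.564). NEUROD1 in cluster 22 also stood lower in GelNB-CH, at 56.4 CPM against 272 CPM in Matrigel, while SOX2 was higher, at 109 CPM against 45.1 CPM. Cluster 20 cells with INSM1 had ISL1, a LIM-homeodomain factor of sensory and motor neurons, in 78.6% of 702 cells, against 50.2% of the 311 without INSM1, both libraries together, at median depths of 13570 and 10230 UMIs. POU4F1, the sensory neuron paralogue of POU4F3, was in 78.9% against 60.5% of the same cells.

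**Figure D4:**
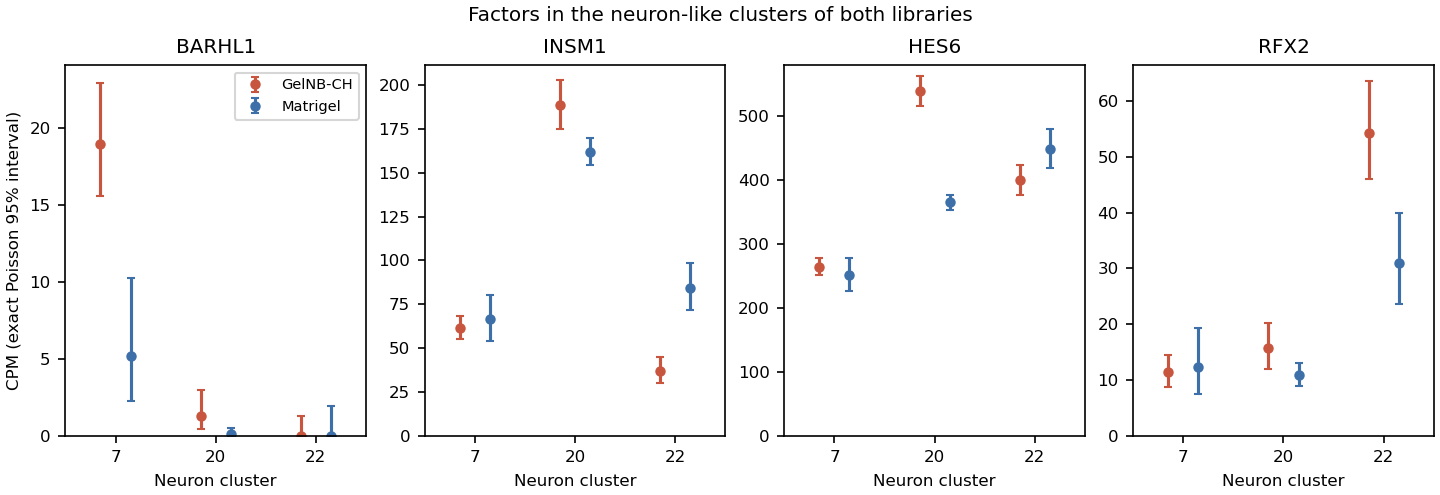
Level of the factors in neuron-like clusters 7, 20 and 22 (x axis), in CPM with exact Poisson 95% intervals (y axis, from 0), GelNB-CH beside Matrigel. BARHL1 and its intervals are highest in cluster 7, INSM1 is highest in cluster 20 and RFX2 in the cycling cluster 22, in both libraries.

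HES6 and RFX2 were spread over many classes. HES6 was at 538.9 CPM in GelNB-CH and 365.3 in Matrigel in cluster 20, a ratio of 1.48 (1.40 to 1.56). In the central nervous system progenitor-like cells it was at 314 and 240 CPM, and in Schwann or satellite glia-like cells at 59.0 and 64.1 CPM. In GelNB-CH the 22 skeletal muscle-like cells had 412 CPM of HES6 (349 to 485), whose interval overlaps that of the neurons. Keratin-rich epithelium-like cells had 17.3 CPM (14.2 to 20.9) in GelNB-CH and 15.8 CPM (12.3 to 20.0) in Matrigel, against 10.7 and 6.56 CPM in cartilage-like cells. No factor was 2-fold higher in keratin-rich epithelium than in the rest of the cells, where 4.54% of genes in GelNB-CH and 5.16% in Matrigel were. RFX2 there was at 8.90 CPM in GelNB-CH and 10.9 in Matrigel, close to the 7.19 and 9.44 CPM of cartilage-like cells. INSM1 had 0 UMIs in the GelNB-CH keratin-rich cells, which allows a share of up to 0.589% of cells, and 5 UMIs in 3 of the 255 Matrigel cells.

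Among the classes other than hair cells, with the neuron clusters pooled, RFX2 was highest in progenitors. In the central nervous system progenitor-like cells it was at 51.8 CPM (45.6 to 58.5) in GelNB-CH and 69.8 CPM (58.1 to 83.3) in Matrigel. Taken alone, the cycling neuron cluster 22 overlapped them in GelNB-CH, at 54.3 CPM (46.1 to 63.6), and lay below them in Matrigel, at 30.9 CPM (23.6 to 39.9). The cycling cluster of each of 3 classes had more RFX2 than the other clusters of that class. For the neuron-like class this was cluster 22, which also carried progenitor markers, so cycling and progenitor identity cannot be told apart there. In the otic epithelium the level was 22.1 CPM in cycling against 11.2 CPM in other cells in GelNB-CH, a ratio of 1.98 (1.72 to 2.29), and 17.6 against 12.2 CPM in Matrigel, a ratio of 1.45 (1.17 to 1.78). In GelNB-CH the ratio was 2.71 (1.89 to 3.82) for glia and 4.14 (3.25 to 5.28) for neurons. In Matrigel it was 2.09 (1.78 to 2.44) for glia and 2.80 (2.02 to 3.83) for neurons. Cycling cells were deeper, with a median of 16152 UMIs for the otic cluster of GelNB-CH, against 9125 in the other otic clusters of that library. HES6 moved the same way in the otic epithelium, at 30.3 against 11.9 CPM in GelNB-CH and 18.2 against 10.5 CPM in Matrigel. In glia its cycling over other ratio was 0.778 (0.578 to 1.03) in GelNB-CH and below 1 in Matrigel, at 0.831 (0.732 to 0.940). In neurons that ratio was 1.06 (0.994 to 1.14) for GelNB-CH and 1.28 (1.19 to 1.38) for Matrigel. INSM1 was lower in cluster 22 than in the other neuron-like clusters, 37.0 against 113 CPM in GelNB-CH and 84.4 against 150 CPM in Matrigel.

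**Figure D5:**
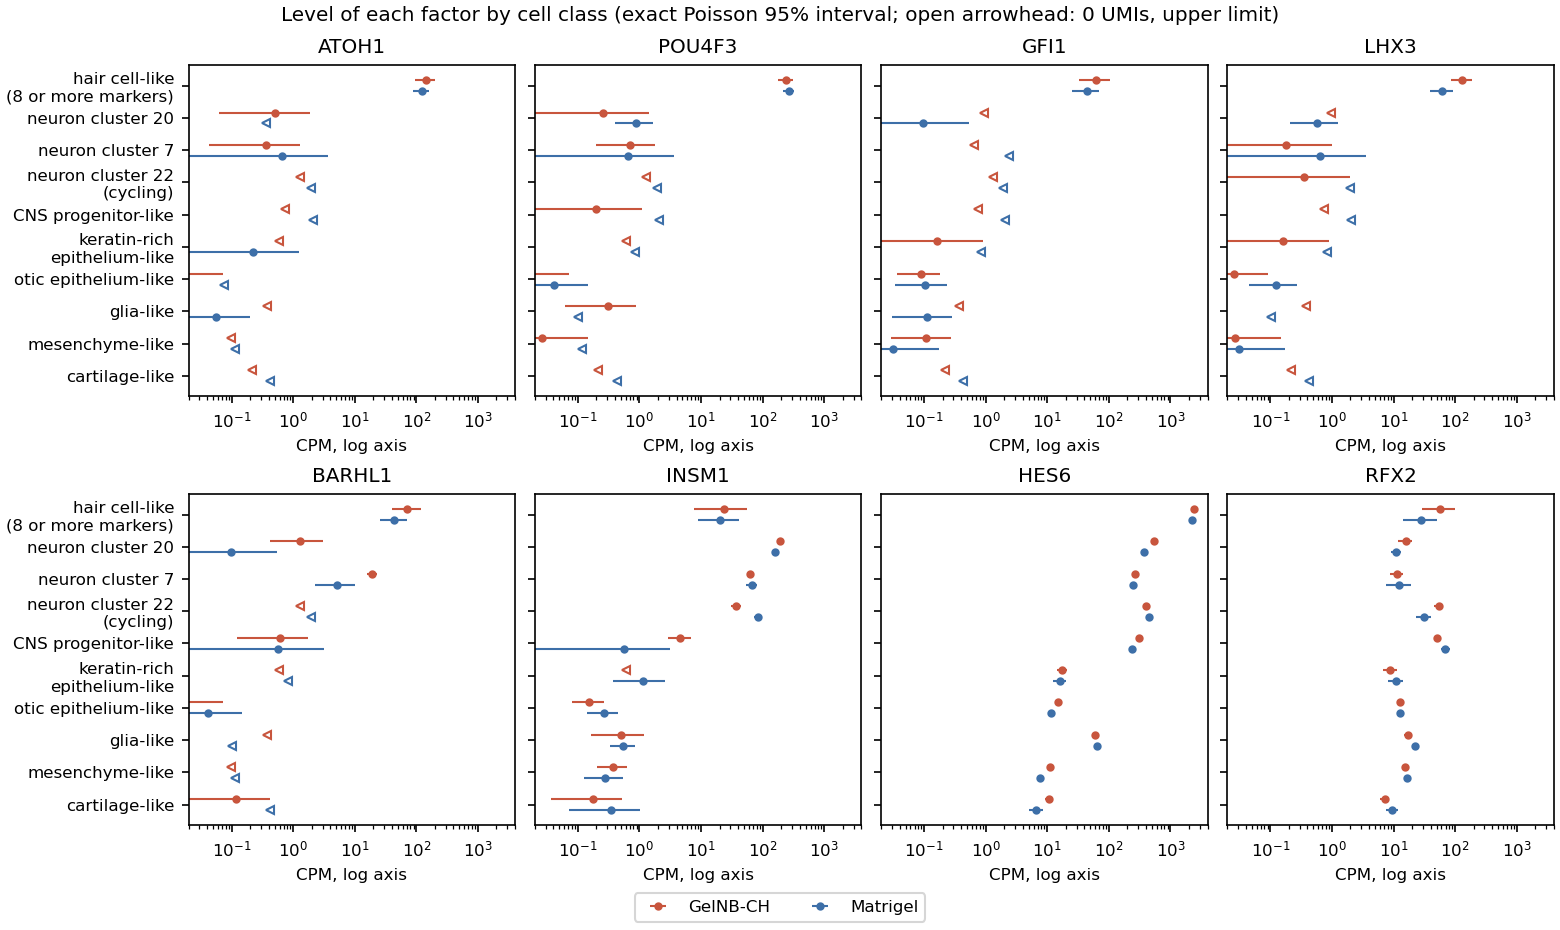
Level of each factor by cell class (x axis, CPM on a log axis with exact Poisson 95% intervals and open arrowheads for upper limits at 0 UMIs; CNS, central nervous system), with GelNB-CH above Matrigel in each row and the neuron-like class shown by cluster. Hair cells lead for ATOH1, POU4F3, GFI1, LHX3, BARHL1 and HES6 in both libraries, neuron cluster 20 leads for INSM1, and for RFX2 hair cells overlap the progenitors in GelNB-CH while the progenitors lead in Matrigel.

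The order of the levels was clear at the top and not below it. For ATOH1, POU4F3, GFI1, LHX3 and BARHL1 the interval of hair cells lay apart from that of the next class in both libraries. Below the hair cells, neighbouring classes mostly overlapped for these 5 factors. For INSM1 the neuron-like class came first and hair cells second, apart from it in both libraries, though in GelNB-CH the hair cells overlapped the skeletal muscle-like cells at 16.7 CPM. For RFX2 hair cells and central nervous system progenitor-like cells overlapped in GelNB-CH.

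Over all kept cells the libraries differed most for BARHL1, at 0.737 CPM in GelNB-CH and 0.185 in Matrigel, a ratio of 3.99 (2.65 to 6.18). POU4F3 stood at 0.395 CPM in GelNB-CH and 0.733 in Matrigel, a ratio of 0.540 (0.397 to 0.730), and INSM1 at 6.81 and 12.9 CPM, a ratio of 0.527 (0.490 to 0.565). ATOH1 gave 0.683 (0.442 to 1.05), GFI1 0.880 (0.505 to 1.54) and LHX3 0.828 (0.512 to 1.34), whose intervals include 1. HES6 was at 0.871 (0.847 to 0.896) and RFX2 at 0.914 (0.867 to 0.963). Of the 2 factors that reached 10 CPM in both libraries and INSM1, which did in Matrigel, none differed 2-fold, while 0.71% of all genes compared were 2-fold higher and 1.39% lower in GelNB-CH (2.1% either way). These ratios join the level within a class with the share of that class. With every class given the same weight in both libraries, HES6 turned to 1.14 and POU4F3 to 1.40. Here the neuron-like clusters were pooled as a single class, so their differing shares were not equalised. All hair cell-like cells formed the hair cell class, with POU4F3 at 182 CPM in GelNB-CH and 129 in Matrigel. They held 57 of its 73 UMIs in GelNB-CH and 103 of 115 in Matrigel. With at least 8 markers POU4F3 was at 238.2 CPM (176.8 to 314.0) in GelNB-CH and 265.5 CPM (216.7 to 321.9) in Matrigel. Whether POU4F3 turns with only these cells as the class was not tested.

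The genes whose level followed each factor most closely over 44 profiles (cluster by library, 1 of them the 22 Matrigel cells with at least 5 structural markers) were named by Pearson correlation of log2(CPM + 1), with no test. The profiles share libraries, and for factors found in 1 class the value rests on that 1 profile. ATOH1 went with ADAD1 (0.98), POU4F3 and CA7, a carbonic anhydrase. POU4F3 went with ATOH1, CABP2 and LHX3, and LHX3 with CABP2, POU4F3 and ADAD1. GFI1 went with CABP2, a calcium-binding protein of the hair cell synapse, PLSCR5 and ADAD1. BARHL1 was nearest to SNAP91 (0.83), CHD5 and NOL4, INSM1 to NHLH2 (0.97), LINC02223 and ST18, HES6 to FMN2 (0.91) and PPM1E, and RFX2 to MNS1 (0.81), MSH5 and IFT122, the last a gene of ciliary transport.

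Notch pathway genes were counted in hair cells against the other cells. In GelNB-CH 4 of the 14 compared were 2-fold higher and 6 lower, with a median log2 ratio of -0.59 beside 0.08 over all genes. In Matrigel 6 of 16 were higher and 6 lower, with a median of -0.34 beside 0.18. Over all genes compared, 20.3% in GelNB-CH and 19.2% in Matrigel were higher, and 18.9% and 14.2% lower. By the limit of 5 markers the counts were 4 higher and 4 lower of 14 in GelNB-CH, and 5 higher and 4 lower of 15 in Matrigel. By that limit 16.4% and 13.5% of all genes were higher, and 13.2% and 7.87% lower. Higher genes of the pathway included the ligands DLL1 and JAG2 and the glycosyltransferase MFNG. DLL1 was at 76.2 CPM in GelNB-CH hair cells, against 4.61 CPM in the other cells, and at 69.6 CPM in Matrigel hair cells, against 3.79 CPM. JAG2 was at 57.2 against 2.45 CPM in GelNB-CH and 30.9 against 2.79 CPM in Matrigel. MFNG had 33.3 against 0.825 CPM in GelNB-CH and 92.8 against 2.17 CPM in Matrigel. The effector HES1 was lower. HES1, the repressor of ATOH1, was at 357 against 1257 CPM in GelNB-CH and 217 against 967 CPM in Matrigel, and had a UMI in 7 of the 13 GelNB-CH and 5 of the 12 Matrigel hair cells. HES5, another effector, had 57.2 against 117 CPM in GelNB-CH and 46.4 against 57.2 CPM in Matrigel, a Matrigel difference short of 2-fold. JAG1, a ligand, had 38.1 against 89.4 CPM in GelNB-CH and 137 against 100.6 CPM in Matrigel. LFNG was scarce in GelNB-CH hair cells, with 1 UMI. As with the factors, a gene that reached 10 CPM only in hair cells had to be called higher.

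Among 20 paralogues of the factors, 10 were compared in each library, with 3 higher and 4 lower in GelNB-CH and 2 higher and 5 lower in Matrigel. The median log2 ratio was -0.53 in GelNB-CH and -0.68 in Matrigel, beside 0.08 and 0.18 over all genes. Of all genes compared, 20.3% in GelNB-CH and 19.2% in Matrigel were higher, and 18.9% and 14.2% lower. BARHL2 and POU4F2 had 0 UMIs in the hair cells of both libraries. ATOH7, a relative of ATOH1 known from retinal ganglion cells, had 18 UMIs in 11 of the 13 GelNB-CH and 22 UMIs in 9 of the 12 Matrigel hair cells, 85.8 and 56.7 CPM, against 0.222 and 0.237 CPM in the other cells. Of the 18 other regulators of hair cell identity, 17 were compared in GelNB-CH, with 5 higher and 2 lower, and 16 in Matrigel, with 2 higher and 2 lower. The median log2 ratio was 0.25 in GelNB-CH and 0.16 in Matrigel, near that of all genes. The shares of all genes given beside the paralogues apply to these counts too. EYA1, a transcriptional cofactor of the early ear, was at 481 against 203 CPM in GelNB-CH and 456 against 162 CPM in Matrigel. ID3, an inhibitor of basic helix-loop-helix proteins, was at 453 against 1133 CPM in GelNB-CH and 368.6 against 1332 CPM in Matrigel. TCF4, a dimer partner of ATOH1-type proteins, was at 500 against 277 CPM in GelNB-CH and 366 against 207 CPM in Matrigel, under 2-fold in both. RORB, a nuclear receptor, had 0 UMIs in the hair cells of both libraries.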

How the data were processed

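The 2 libraries, 1 per group, were grouped by their treatment label. The deposited values are counts of UMIs per gene and barcode, which the authors restricted to called cells without normalisation; the submitters' processing notes name Cell Ranger, STAR and GRCh38. The members and lists used here were chosen with earlier results of these data known.

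Cells were kept with at least 1000 genes and at most 15% mitochondrial UMIs, after Scrublet (scanpy 1.11.5) on each library. Leiden clusters (resolution 1.0, 23 clusters, 2 unnamed) were made from 2000 variable genes without the 8 factors, and named from marker lists. CPM are summed counts per 1000000 UMIs of a class, with exact Poisson 95% intervals, ratios have exact conditional binomial intervals and shares exact Clopper-Pearson intervals. Thinned values use 5000 UMIs a cell, leaving out 1939 GelNB-CH and 418 Matrigel cells. Fold counts use a larger CPM of at least 10 and a 2-fold difference, over all genes, with no p-values. Log2 ratios used a pseudocount of 1. Named genes are the factors, SOX2, NEUROD1, the 3 genes most correlated with each factor, and list members of highest and lowest CPM; other genes were named with their values known. Some genes that this rule names are not reported here. The ratio between libraries, its interval and the 2-fold call were checked on simulated library totals of genes with a mean of at least 10 CPM. Of the factors only HES6 and RFX2 reached that mean over all kept cells. The picking of hair cells, the clustering and the co-detection were not checked on simulated data. Alternatives covered marker limits, filters, doublets, depth, clustering, TMM scaling (edgeR 4.0.16) and class make-up. Python 3.11.15 was used with pandas 2.3.3, scipy 1.17.1 and numpy 2.4.6.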

Additional observations from a re-analysis of the deposited data

Results flagged for a closer look

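The GelNB-CH over Matrigel ratio of 3 factors ran in opposite directions in different classes. None of these differences was tested, since there is 1 library per group. For INSM1 the ratio was 8.19 (1.33 to 337) in central nervous system progenitor-like cells, resting on 23 GelNB-CH UMIs and 1 Matrigel UMI, and 0.439 (0.340 to 0.564) in the cycling neuron cluster 22. For HES6 it was 1.63 (1.21 to 2.24) in cartilage-like cells and 0.892 (0.816 to 0.976) in cluster 22, with intervals above 1 in 6 and below 1 in 1 of the 11 classes compared. For RFX2 it was 1.76 (1.29 to 2.41) in cluster 22 and 0.741 (0.596 to 0.926) in central nervous system progenitor-like cells.

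Barcodes marked as doublets were left out of every value. Among them 6 GelNB-CH barcodes and 0 Matrigel barcodes had at least 8 structural hair cell markers, and all 6 had at least 2 of ATOH1, POU4F3, GFI1 and LHX3, at a median of 23792 UMIs.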

How the results depend on the processing

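No paired analysis was possible because each group has 1 library. Of 174 values recomputed under an alternative, 130 kept their side and size, 42 moved beyond their interval and 2 turned round. The cause was not tested. With class make-up equalised, the GelNB-CH over Matrigel ratio was 1.76 for ATOH1, 1.69 for GFI1, 1.14 for HES6, 0.689 for INSM1, 1.91 for LHX3 and 1.40 for POU4F3. The neuron-like clusters were pooled as a single class there, so their differing shares were not equalised. The ratio of 0.689 for INSM1 still holds that mix. HES6 and POU4F3 turned round, with all hair cell-like cells taken as the hair cell class. Thinned to 5000 UMIs it was 0.906 for HES6, 0.887 for POU4F3 and 0.803 for RFX2. With TMM factors it was 0.926 for HES6 and 0.971 for RFX2.

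The share of hair cell-like cells was 0.203% in GelNB-CH at a limit of 4 markers. In Matrigel it was 0.714% at 4 markers, 0.133% at 6, 0.122% at 8, 0.107% after thinning, and 0.112% by the hair cell-like cluster, a set chosen after seeing the data. Hair cell-like cells held 66.7% of the UMIs of ATOH1, POU4F3, GFI1 and LHX3 in GelNB-CH at 8 markers and 76.3% in Matrigel by the cluster. Cells with at least 4 factors numbered 10 in GelNB-CH and 8 in Matrigel when a factor needed 2 UMIs, 100% of them hair cell-like in both. They numbered 5 in Matrigel after thinning, 100% hair cell-like, and without HES6 and RFX2 the Matrigel share was 100%.

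With Leiden resolutions of 0.5 and 2.0, GelNB-CH neuron-like levels were 11.1 and 11.0 CPM for BARHL1, 440 and 452 for HES6, 111.0 and 110.1 for INSM1, and 13.4 and 13.6 for RFX2. Clusters made with the factors gave 432 for HES6. Matrigel keratin-rich HES6 was 11.3 CPM at resolution 2.0. The neuron-like share of INSM1 UMIs in GelNB-CH was 89.7% and 89.9% at these resolutions and 87.9% with marked doublets kept. In Matrigel it was 94.9% at resolution 2.0, 94.3% at 4 markers, 97.0% at 8 markers and by the cluster, and 94.5% with marked doublets kept. Of 60 recomputed median log2 ratios of gene lists, 45 stayed within 0.5 of their first value and 15 moved. Few cells and 1 library per group limit every value, and rare factors at 1 to 3 UMIs a cell cannot be called absent.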

Other observations

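Genes of motile cilia were present in the hair cells. All 8 genes of the list had UMIs in both libraries, summing to 657 CPM in GelNB-CH and 343 in Matrigel, against 17.5 and 15.8 CPM in the other cells. DNAH9, an axonemal dynein, was at 233 against 6.99 CPM in GelNB-CH and 97.9 against 5.44 CPM in Matrigel, and FOXJ1, the regulator of motile ciliogenesis, at 42.9 against 0.754 CPM and 12.9 against 0.500 CPM. Of 12 ciliary genes tied to the RFX family, 10 of 11 compared were 2-fold higher in GelNB-CH and 6 of 11 in Matrigel. Among all genes compared, 20.3% and 19.2% were that much higher. FOXJ1, CCDC39 and DNAI1 of this list reached 10 CPM only in hair cells and so had to be called higher. The median log2 ratio of the list was 1.45 in GelNB-CH and 1.45 in Matrigel, beside 0.08 and 0.18 over all genes.

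Of 12 synapse and calcium buffer genes, 5 of 7 compared were higher and 1 lower in GelNB-CH, and 7 of 8 were higher in Matrigel. CACNA1D, the calcium channel of the hair cell synapse, was at 210 against 13.3 CPM in GelNB-CH and 111 against 12.7 CPM in Matrigel. RIMS2, an active zone protein, was at 619 against 83.0 CPM in GelNB-CH and 451 against 152 CPM in Matrigel. CALB2, PVALB, OCM and SLC17A8 were at 0 in both, where a count of 0 allows 17.6 CPM in GelNB-CH and 9.51 in Matrigel. All 29 CALB1 UMIs of the Matrigel hair cells came from 1 cell. Of 12 neuroendocrine genes, 6 of 10 compared were higher in GelNB-CH and 6 of 9 in Matrigel, with 1 lower in each. The same shares over all genes and the same limit apply, CHGB being a gene that passed only through hair cells. SCG5, a secretory chaperone, was at 267 against 67.0 CPM in GelNB-CH and 198 against 49.6 CPM in Matrigel. SCG2 had 0 UMIs in both. CHGB, a secretory granule protein, was at 57.2 against 3.35 CPM in GelNB-CH and 82.5 against 4.09 CPM in Matrigel.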
